A study of Mus musculus with 6 samples.

Results

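The PGC-1 coactivators and the factors of mitochondrial biogenesis that work with them were taken from the RNA-seq of Al-exposed HT22 cells by gene symbol. They comprised 10 of the 21878 genes in the deposited table, namely the coactivators Ppargc1a (PGC-1α), Ppargc1b (PGC-1β) and Pprc1 (PRC), the partner factors Esrra (ERRα), Nrf1, Gabpa and Gabpb1, and the mitochondrial factors Tfam, Tfb1m and Tfb2m. HT22, an immortalized line of mouse hippocampal neuronal cells, was exposed to aluminum maltolate at 120 µM for 24 h in the Al group and to no aluminum in the control group, and each group has 3 biological replicates. The libraries were the inputs of an m6A immunoprecipitation, so that they hold fragmented mRNA that was not enriched. A DMEM-only and a maltol control are both described in the methods, and which of them was sequenced is not stated. HT22 is a single immortalized line, and the series design gives a range of aluminum doses rather than this one. In the labels the treated libraries carry only the letter M.

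PGC-1 coactivators do not bind DNA themselves. They are recruited by factors such as ERRα, nuclear respiratory factor 1 (NRF1) and the GA-binding protein GABP (also called NRF2), and together these raise the transcription of nuclear genes for respiratory chain subunits and for the mitochondrial transcription machinery. TFAM packages and bends mitochondrial DNA, TFB2M opens the promoter for the mitochondrial RNA polymerase, and TFB1M methylates the small ribosomal RNA of the mitochondrion. PGC-1α is abundant in tissues with a high oxidative demand, brain included, and is widely used as a readout of mitochondrial biogenesis.

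Promoter sequences are shown for the genes that carried a textbook motif of NRF1, GABP or ERRα, and for the coactivators without one, because these factors are placed in one chain of regulation. The RefSeq windows (GRCm38.p6) run from 250 bases before to 50 bases after a start site. NRF1 was searched as GCGCANGCG, GABP as CCGGAAGT and ERR as TCAAGGTCA, on both strands, with no overlap between the motifs found here. They occurred in 6.25%, 3.89% and 0.423% of the 32851 windows. Of the 10 genes, 9 had a window, and 4 of these held a motif. Capitals mark the motif, and each sequence is written 5′ to 3′ on the strand of its gene.

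Esrra, 155 to 6 bases before the RefSeq start, chr19:6921814-6921963, minus strand: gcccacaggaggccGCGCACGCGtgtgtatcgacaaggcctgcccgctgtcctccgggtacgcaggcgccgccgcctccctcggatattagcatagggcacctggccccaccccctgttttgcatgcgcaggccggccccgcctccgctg
Tfam, GABP motif before the start, chr10:71238073-71238102, minus strand: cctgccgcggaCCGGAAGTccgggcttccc
Gabpb1, NRF1 motif before the start, chr2:126675789-126675818, minus strand: accccgctgccGCGCAGGCGccgggcgagc
Tfb2m, NRF1 motif after the start, chr1:179546246-179546275, minus strand: gctaggtcgttCGCATGCGCcattcgtaat
Ppargc1a, 151 to 2 bases before the RefSeq start, chr5:51567727-51567876, minus strand: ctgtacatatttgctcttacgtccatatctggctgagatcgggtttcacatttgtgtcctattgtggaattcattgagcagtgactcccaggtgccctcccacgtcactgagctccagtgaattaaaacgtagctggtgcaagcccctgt
Pprc1, 150 bases before the RefSeq start, chr19:46056389-46056538, plus strand: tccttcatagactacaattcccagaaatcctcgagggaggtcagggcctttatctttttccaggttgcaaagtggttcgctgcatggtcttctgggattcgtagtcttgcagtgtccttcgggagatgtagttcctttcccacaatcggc

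The NRF1 motif of Esrra began 141 bases before the start site, the GABP motif of Tfam 47 bases before it and the NRF1 motif of Gabpb1 215 bases before one of its 2 start sites. The NRF1 motif of Tfb2m lay 12 bases after the start. None of the 3 motifs was found in the windows of Ppargc1a, Pprc1, Nrf1, Gabpa or Tfb1m, and Ppargc1b had no window. The RefSeq start of Pprc1 lies inside the gene as GENCODE bounds it, downstream of the GENCODE start. A match is a description of the letters, and its absence says only that these letters are not in the window.

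The FPKM values rested on 38059492 to 44556768 reads per control library and on 21125631 to 26670978 per Al library, as read from the steps of the values, and these counts cover counting error only. The 50 most abundant genes held 18.0% to 19.4% of the summed FPKM in control libraries and 30.01% to 32.5% in Al libraries, so each library was divided by a size factor. All 10 genes passed the filter on low values, and each was compared by limma on log2(scaled FPKM + 0.1), with Benjamini-Hochberg adjustment over the 12889 genes tested. Fold changes are on this log2 scale throughout. Fewer cells and less RNA per cell cannot be told apart in such bulk libraries. Of 16 neuronal markers 3 had a mean of at least 1 FPKM (Ncam1, Tubb3 and Eno2), Snap25, Uchl1 and Nefm were listed at 0 in all 6 libraries, and Rbfox3 did not exceed 0.0114 FPKM. The 8 fibroblast and mesenchymal markers summed to 3605 to 5225 FPKM in control and 4142 to 5328 in Al libraries, and 7 of them averaged at least 1 FPKM. The 6 astrocyte markers, mostly Slc1a3, summed to 14.1 to 23.4 FPKM in control and to 1.58 to 2.71 in Al libraries, with Aqp4 at 0 in all. The 8 hippocampal and glutamatergic markers, mostly Zbtb20, summed to 4.81 to 6.68 FPKM in control and to 1.36 to 2.32 in Al libraries, with Neurod1 at 0 in all. Among the 7 microglial markers Tmem119 alone averaged at least 1 FPKM, and none of the 7 oligodendrocyte or 5 endothelial markers did. The part of these markers in the results was not tested.

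In Al-treated HT22 cells, 4 of the 10 genes were downregulated at an adjusted P under 0.05 (Ppargc1a, Ppargc1b, Esrra and Tfb1m) and 4 were upregulated (Pprc1, Gabpb1, Tfam and Tfb2m), while Nrf1 and Gabpa did not pass. The shares among all genes tested were 29.9% lower and 32.2% higher. The thresholds of the study were a log2 fold change beyond 0.58 in either direction, with P under 0.05 before adjustment. The study applied them to DESeq2, which was not run here. Applied to limma after scaling, 3 of the 10 were lower (Ppargc1b, Esrra and Tfb1m) and 2 were higher (Gabpb1 and Tfb2m). Among all genes 24.4% were lower and 26.2% higher. Ppargc1a missed only the fold change there, at -0.42. It passed both thresholds as lower with FPKM as deposited (-0.90) and with TPM (-1.19). With these 2 scalings 42.0% and 53.1% of all genes were lower at the thresholds. The libraries of the groups did not overlap for 8 of the 10 genes after scaling, beside 68.1% of all genes tested. The median log2 fold change of the 10 genes was 0.07, and that of all genes was 0.03. These directions depended on the scaling for some genes. With FPKM as deposited the median of all genes shifted by -0.46, and with TPM (each library scaled to one sum) it shifted by -0.75. With FPKM as deposited only Tfb2m passed the adjusted P as higher among the 10, beside 17.9% of all genes higher and 47.9% lower, and with TPM none passed as higher, beside 11.5% higher and 57.6% lower.

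**Figure D1:**
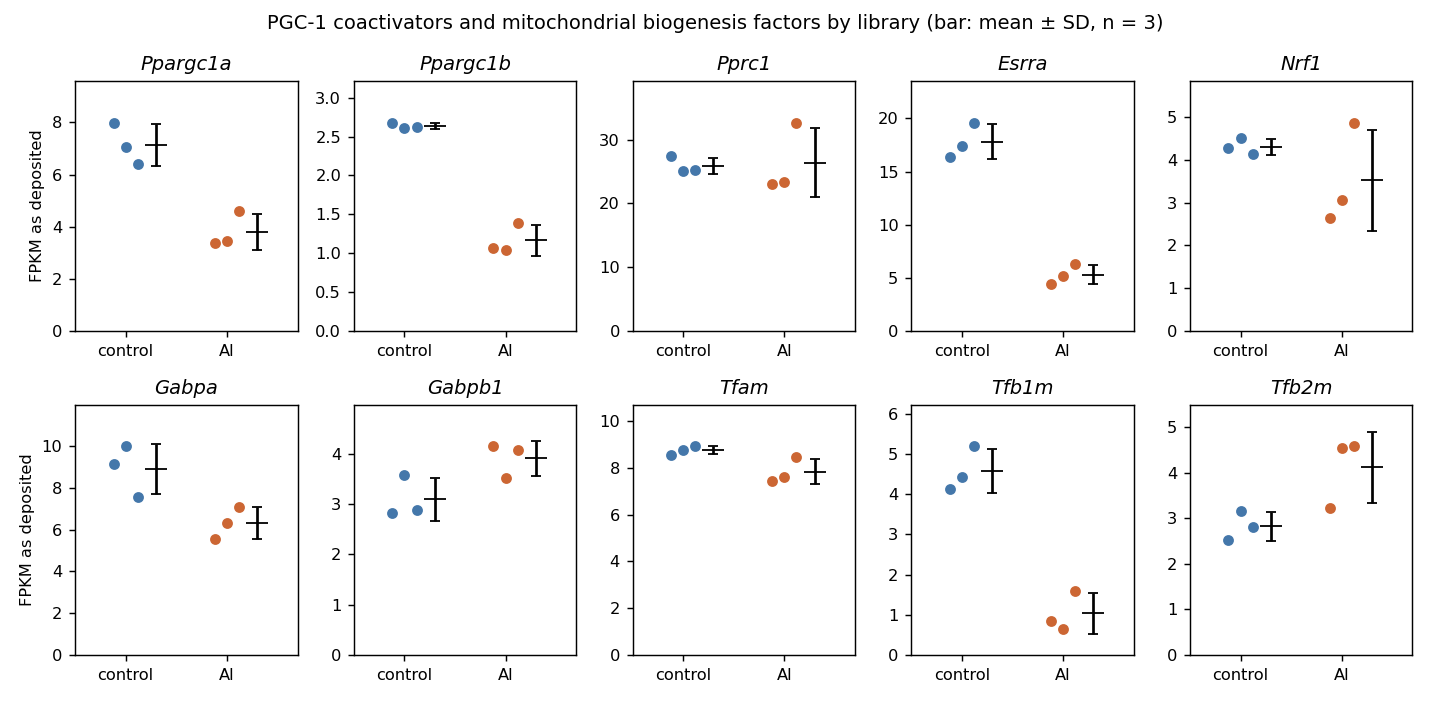
FPKM as deposited (vertical axes, each from 0) of the 10 genes in 3 control and 3 Al libraries, with the mean ± SD of each group beside the points. Ppargc1a, Ppargc1b, Esrra, Gabpa, Tfam and Tfb1m were lower in every Al library, Esrra at 4.48 to 6.31 FPKM against 16.4 to 19.6 in control. Tfb2m is the only gene of the 10 whose Al libraries all lie above the control libraries on this scale. The median log2 fold change of all genes tested was -0.43 on it.

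The coactivators did not move together. Ppargc1a (chr5:51454250-51567726, minus strand) had 7.98, 7.05 and 6.40 FPKM in the control libraries and 3.38, 3.44 and 4.59 FPKM in the Al libraries. Every Al library lay below every control library, with and without scaling, and 892 to 1149 reads stood behind the Al values. After scaling, Ppargc1a fell from 6.03 ± 0.665 to 4.47 ± 0.405 FPKM (SD, n = 3 each), which is -0.42 on the log2 scale (SE 0.136, adjusted P = 0.0243). With FPKM as deposited the value was -0.90 (adjusted P = 0.00138), and with TPM it was -1.19 (adjusted P = 0.000629). The medians of all genes were -0.43 and -0.72 there. The call made with size factors passed in 12 of 19 alternatives and its direction held in all 19. It was lost with quantile normalization (-0.16, adjusted P = 0.280), when centred within deciles of gene length (-0.15, adjusted P = 0.264), with the replicate number as a block (-0.42, adjusted P = 0.0526), and without control replicate 1 (-0.35, adjusted P = 0.103), control replicate 2 (-0.45, adjusted P = 0.0584), Al replicate 1 (-0.38, adjusted P = 0.0605) or Al replicate 2 (-0.38, adjusted P = 0.0704).

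Ppargc1b, a coactivator that partners with ERRα and whose gene hosts the microRNA Mir378a, was the least abundant of the 3 coactivators. It had 2.68, 2.60 and 2.62 FPKM in control and 1.07, 1.04 and 1.39 FPKM in Al libraries, with no overlap. Its log2 fold change after scaling was -0.66 (SE 0.165, adjusted P = 0.00741), and it missed the threshold only with quantile normalization among the 19 alternatives (-0.36, adjusted P = 0.0748). The value was -1.12 with FPKM as deposited (adjusted P = 0.00109) and -1.40 with TPM (adjusted P = 0.000571). With size factors, a log2 fold change below that of Ppargc1b was found in 23.7% of all genes tested, and one below that of Ppargc1a in 32.5%.

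Pprc1, the relative of PGC-1α that responds early to serum and growth signals, was the most abundant of the 10 genes. It had 27.4, 25.1 and 25.2 FPKM in control libraries and 23.1, 23.4 and 32.6 FPKM in Al libraries, so that the groups overlapped as deposited. After scaling the Al values were all higher, with a log2 fold change of 0.49 (SE 0.109, adjusted P = 0.00415), which became 0.0077 with FPKM as deposited (adjusted P = 0.966) and turned to -0.29 with TPM (adjusted P = 0.165). It also missed the threshold with quantile normalization (0.31, adjusted P = 0.0595). Pprc1 (chr19:46044886-46072915, plus strand) shares 177 exonic bases with Ldb1 on the opposite strand, where the log2 fold change was 0.19 (adjusted P = 0.179). Whether the counting used strand is not stated.

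Ratios of the deposited FPKM within a library are the same under any scaling that divides a library by 1 factor (size factors, upper quartile or TPM), but not under quantile normalization or centring by gene length. The ratio of Pprc1 to Ppargc1a was 3.43, 3.57 and 3.95 in control and 6.83, 6.80 and 7.12 in Al libraries, a 1.90-fold rise of the ratio. With quantile normalization the log2 fold changes of Pprc1 and Ppargc1a lay closer together (0.31 and -0.16) than with size factors (0.49 and -0.42). The ratio of Ppargc1b to Ppargc1a was 0.335, 0.369 and 0.410 in control and 0.317, 0.301 and 0.304 in Al libraries. Pprc1 therefore made up 72.6% ± 0.906 of the summed FPKM of the 3 coactivators in control cells and 84.1% ± 0.368 in Al-treated cells (SD, n = 3 each). The share of Ppargc1a was 19.97% ± 1.18 in control and 12.2% ± 0.254 in Al-treated cells, and that of Ppargc1b was 7.39% ± 0.323 and 3.74% ± 0.141. The shares were computed after the values had been seen, and an exact permutation test gave two-sided P = 0.1 for each, the smallest value that 3 against 3 libraries allow.

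**Figure D2:**
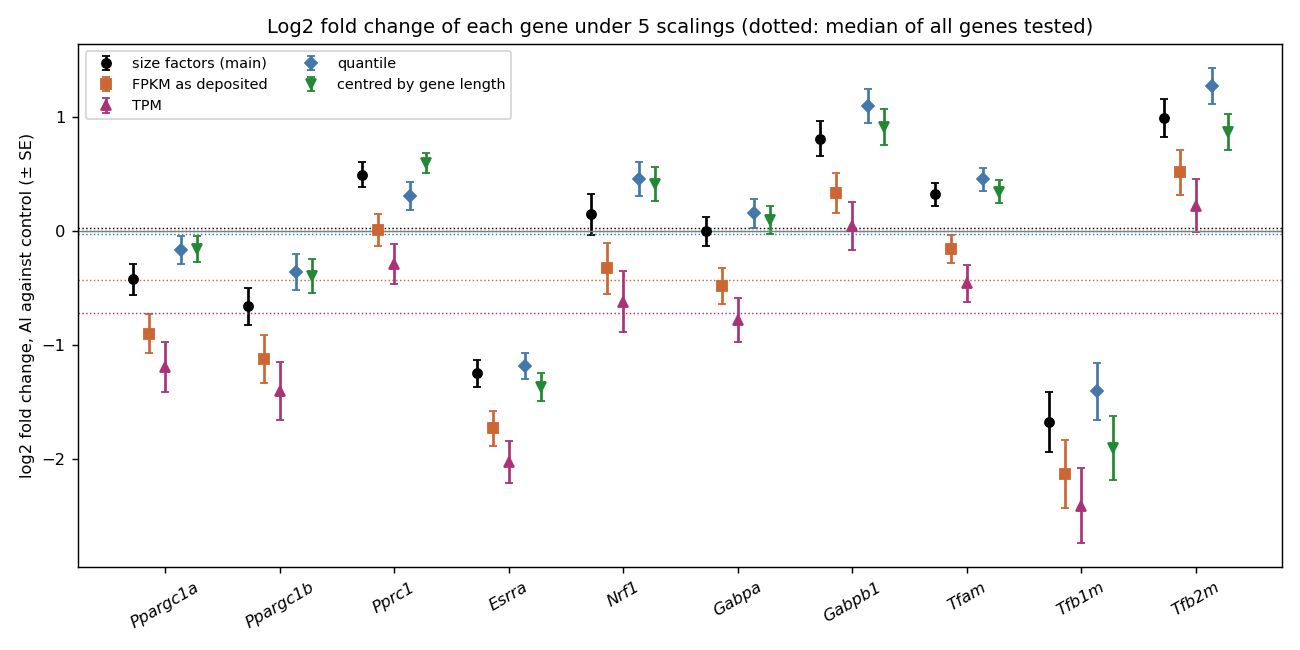
Log2 fold change (Al against control, ± SE, vertical axis) of each of the 10 genes under 5 scalings of the libraries, with dotted lines at the median of all genes tested under each. Esrra and Tfb1m lie below 0 and Tfb2m and Gabpb1 above 0 in all 5, whereas Tfam turned from 0.32 to -0.16 with FPKM as deposited and to -0.46 with TPM, Pprc1 turned to -0.29 with TPM, and Nrf1 and Gabpa also changed sign.

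Among the partner factors, Esrra was the gene that moved most. Esrra encodes the orphan nuclear receptor ERRα, which binds the promoters of fatty acid oxidation and respiratory chain genes and induces its own gene. It had 16.4, 17.4 and 19.6 FPKM in control and 4.48, 5.20 and 6.31 FPKM in Al libraries. The lowest control library was above the highest Al library by a wide margin, with 293 to 344 reads behind the Al values. The log2 fold change was -1.25 (SE 0.123, adjusted P = 5.51e-05), or 0.421 of the control level, and the call held in the same direction in 19 of 19 alternatives, between -2.03 and -1.14. By log2 fold change, 9.43% of the genes tested lay below Esrra. Esrra (chr19:6910977-6921813, minus strand) shares 73 exonic bases with Trmt112 on the opposite strand, where the value was 0.11 (adjusted P = 0.359), and 91 with the microRNA Mir6990 on its own strand.

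Relative to Ppargc1a, the ratio of Esrra was 2.06, 2.47 and 3.06 in control and 1.32, 1.51 and 1.38 in Al libraries, with no overlap. The difference of the log2 ratio was -0.83 (SE 0.175). Esrrb and Esrrg, the relatives of ERRα, were both too low to be tested.

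Nrf1 encodes nuclear respiratory factor 1, which binds GC-rich promoters of respiratory genes and of Tfam. It had 4.27, 4.50 and 4.13 FPKM in control and 2.65, 3.05 and 4.86 FPKM in Al libraries. The Al values spread from below to above the control values, and Al replicate 3 was the highest of the 6 libraries. The log2 fold change was 0.15 (SE 0.180, adjusted P = 0.496), was -0.03 without Al replicate 3 (adjusted P = 0.862), and was -0.33 and -0.62 with FPKM as deposited and TPM. Nrf1 passed at 0.46 with quantile normalization (adjusted P = 0.0290). Beside Ppargc1a it was higher in every Al library, with ratios of 0.535, 0.639 and 0.646 in control and 0.784, 0.887 and 1.06 in Al libraries. Nrf1 is at chr6:30047988-30153458 on the plus strand.

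GABP is made of a DNA-binding subunit, encoded by Gabpa, and an activating subunit, encoded by Gabpb1 or its relative Gabpb2. Gabpa had 9.15, 9.99 and 7.58 FPKM in control and 5.56, 6.34 and 7.10 FPKM in Al libraries, lower in all as deposited and overlapping after scaling. Its log2 fold change was -0.0018 (SE 0.128, adjusted P = 0.991), and it passed as lower with FPKM as deposited (-0.48, adjusted P = 0.0211) and with TPM (-0.78, adjusted P = 0.00449). Gabpa (chr16:84834925-84863779, plus strand) shares 397 exonic bases with Atp5j, an ATP synthase subunit on the opposite strand. Atp5j had 46.0 to 73.5 FPKM over the 6 libraries and a log2 fold change of 0.62 (adjusted P = 0.0286), so that its reads could enter the value of Gabpa where strand was not used.

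Gabpb1 had 2.82, 3.58 and 2.89 FPKM in control and 4.15, 3.52 and 4.08 FPKM in Al libraries. The lowest Al library was just under the highest control library as deposited, and after scaling all Al libraries were higher. The log2 fold change was 0.81 (SE 0.153, adjusted P = 0.00179), smaller and not past the threshold with FPKM as deposited (0.33, adjusted P = 0.121) and TPM (0.04, adjusted P = 0.867). Without any scaling, the ratio of Gabpb1 to Gabpa was 0.308, 0.359 and 0.381 in control and 0.746, 0.555 and 0.575 in Al libraries. Gabpb2 did not pass, with a log2 fold change of -0.22 (adjusted P = 0.143) and 15.6 to 16.3 FPKM in control against 8.39 to 12.6 FPKM in Al libraries. Gabpb2 was thus the more abundant of these subunit genes in every library, and the ratio of Gabpb1 and Gabpb2 summed to Gabpa, computed after the values had been seen, overlapped between the groups, at 2.02, 1.99 and 2.44 in control and 2.25, 1.92 and 2.35 in Al libraries. Gabpb1 (chr2:126627442-126676337, minus strand) is 97.5% identical to Gm12858 over 204 bases and shares 14 exonic bases with Gm27003 on the opposite strand.

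Tfam (chr10:71225464-71238280, minus strand), the packaging factor of mitochondrial DNA, had 8.56, 8.77 and 8.91 FPKM in control and 7.44, 7.59 and 8.44 FPKM in Al libraries. Here the direction was set by the scaling, because the deposited values were lower in all Al libraries and the scaled values were higher in all of them, at 9.26 ± 0.142 against 7.39 ± 0.203 FPKM (SD, n = 3 each). The log2 fold change was 0.32 after scaling (SE 0.0995, adjusted P = 0.0202), -0.16 with FPKM as deposited (adjusted P = 0.274) and -0.46 with TPM (adjusted P = 0.0271). The call was also lost without control replicate 1 (0.30, adjusted P = 0.0847) or control replicate 2 (0.30, adjusted P = 0.0870), and with the replicate number as a block (0.32, adjusted P = 0.0572). Relative to Ppargc1a, Tfam was higher in every Al library, with ratios of 1.07, 1.25 and 1.39 in control and 2.20, 2.21 and 1.84 in Al libraries.

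Tfb1m and Tfb2m, both descended from rRNA methyltransferases, moved in opposite directions. Tfb1m had 4.13, 4.42 and 5.19 FPKM in control and 0.852, 0.646 and 1.60 FPKM in Al libraries, which rested on 37, 23 and 55 reads. Its log2 fold change of -1.67 (SE 0.261, adjusted P = 0.000643) was the largest decrease among the 10 genes, and 3.84% of all genes tested had a lower one. The call held in 19 of 19 alternatives, between -2.41 and -1.17. Tfb1m (chr17:3519256-3557781, minus strand) shares 142 exonic bases with Tiam2 on the opposite strand, and the log2 fold change of Tiam2 was -0.02 (adjusted P = 0.905).

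Tfb2m had 2.52, 3.16 and 2.81 FPKM in control and 3.23, 4.54 and 4.58 FPKM in Al libraries. Every Al library was above every control library with and without scaling, and the log2 fold change was 0.99 (SE 0.167, adjusted P = 0.000981). It kept its direction in all 19 alternatives and missed the threshold with TPM (0.22, adjusted P = 0.407). The value of Tfb2m (chr1:179528055-179546267, minus strand) is uncertain, because Gm1818, which is not among the symbols of the table, is 99.3% identical to its transcript over 1187 bases. Shorter matches were to 1500011B03Rik, also not among the symbols (90.6% over 223 bases), and to Ifi203 (87.8% over 337 bases), whose log2 fold change was -1.37 (adjusted P = 0.00257). The ratio of Tfb2m to Tfb1m was 0.611, 0.714 and 0.540 in control and 3.79, 7.03 and 2.86 in Al libraries, so that the more abundant of the pair was Tfb1m in every control library and Tfb2m in every Al library. The ratio rose 6.87-fold, a log2 difference of 2.78 (SE 0.400), which lay between 2.42 and 3.06 when single libraries were left out.

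**Figure D3:**
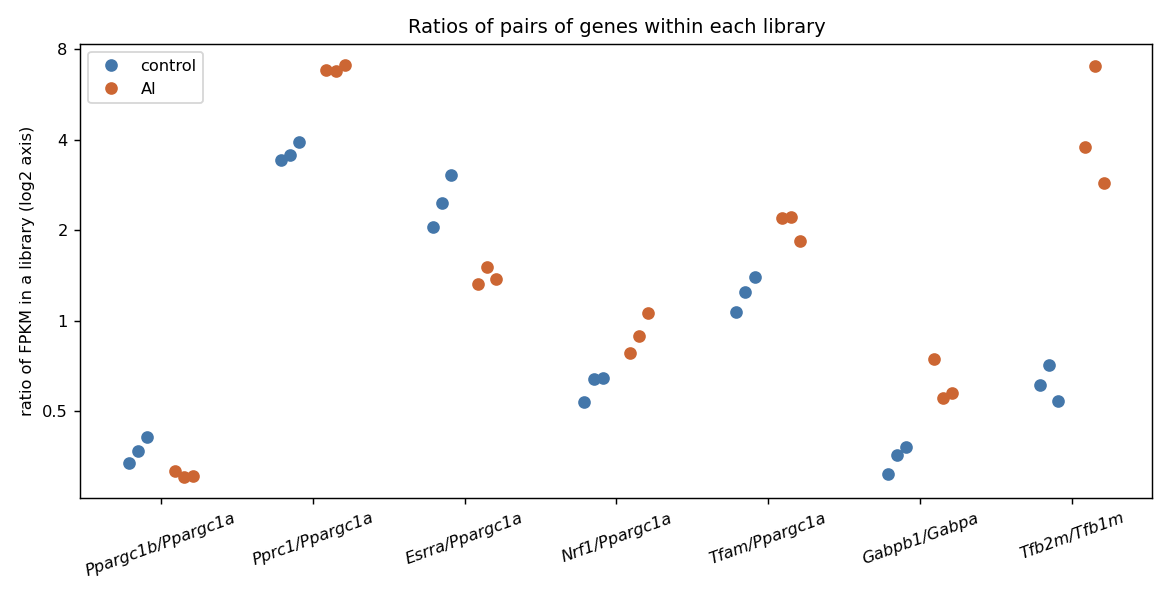
Ratio of the FPKM of 2 genes within each library (vertical log2 axis), for 7 pairs, with control libraries in blue and Al libraries in orange. The groups do not overlap in the 7 pairs, as was the case for 61.2% to 80.8% of all genes over the same denominators, and the ratio of Tfb2m to Tfb1m moved from at most 0.714 in control to at least 2.86 in Al libraries.

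In each of the 7 pairs the ratios of the groups did not overlap. This was common in the table, since the ratio to Ppargc1a, the denominator of 5 of the 7 pairs, did not overlap for 64.6% of all genes tested, the ratio to Gabpa for 61.2% and the ratio to Tfb1m for 80.8%. The exact permutation test gave two-sided P = 0.1 for each, which is the smallest value possible here, and 0.1 after adjustment over the 7 pairs, so that this test cannot reach 0.05 with 3 libraries against 3. Each ratio kept its direction without any single library, with 0.1 FPKM added to both genes, and, as a difference of log2 fold changes, with quantile normalization and centred by gene length.

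The order of the levels, as deposited FPKM per length, changed between the groups. In control cells it was Pprc1 (25.9 ± 1.28), Esrra (17.8 ± 1.63), Gabpa (8.91 ± 1.22), Tfam (8.75 ± 0.176), Ppargc1a (7.14 ± 0.797), Tfb1m (4.58 ± 0.550), Nrf1 (4.30 ± 0.187), Gabpb1 (3.10 ± 0.422), Tfb2m (2.83 ± 0.319) and Ppargc1b (2.64 ± 0.0379), each SD with n = 3. Gabpa and Tfam overlapped in range, as did Tfb1m and Nrf1, Gabpb1 and Tfb2m, and Tfb2m and Ppargc1b. In Al-treated cells Pprc1 stayed first (26.4 ± 5.43), Tfam was second (7.83 ± 0.540), Ppargc1b (1.17 ± 0.197) was ninth and Tfb1m (1.03 ± 0.501) was last. The 6 genes from Gabpa to Nrf1 between them, at 3.52 to 6.33 FPKM, each overlapped in range with the next, and Ppargc1b and Tfb1m overlapped too. Among all genes above 0 in a library, Esrra went from the 73.8 ± 1.68 percentile of level to the 56.0 ± 1.22 percentile, Tfb1m from 45.7 ± 1.80 to 32.6 ± 3.33, and Tfb2m from 39.4 ± 1.89 to 51.5 ± 2.28 (SD, n = 3 each). For Ppargc1a the percentile was 53.5 ± 2.19 in control and 50.2 ± 0.812 in Al-treated cells.

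Gene length moved with the fold changes over the whole table. The length that the FPKM steps imply ranged from 1629 bases for Tfb1m to 11858 bases for Ppargc1a among the 10 genes. In the decile of genes with the shortest lengths the median log2 fold change was 0.45, and in the decile with the longest, which holds Ppargc1a, Ppargc1b (11474 bases) and Nrf1 (11273 bases), it was -0.27. When each library was centred within deciles of length, an alternative added after the data had been seen, Ppargc1a was at -0.15 (adjusted P = 0.264), Ppargc1b at -0.39 (adjusted P = 0.0478) and Nrf1 at 0.41 (adjusted P = 0.0395). Esrra at -1.37 and Tfb1m at -1.90 were further from 0 than before, and Pprc1, Gabpb1, Tfam and Tfb2m all stayed past the threshold as higher. The part of length in these results was not tested beyond this.

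**Figure D4:**
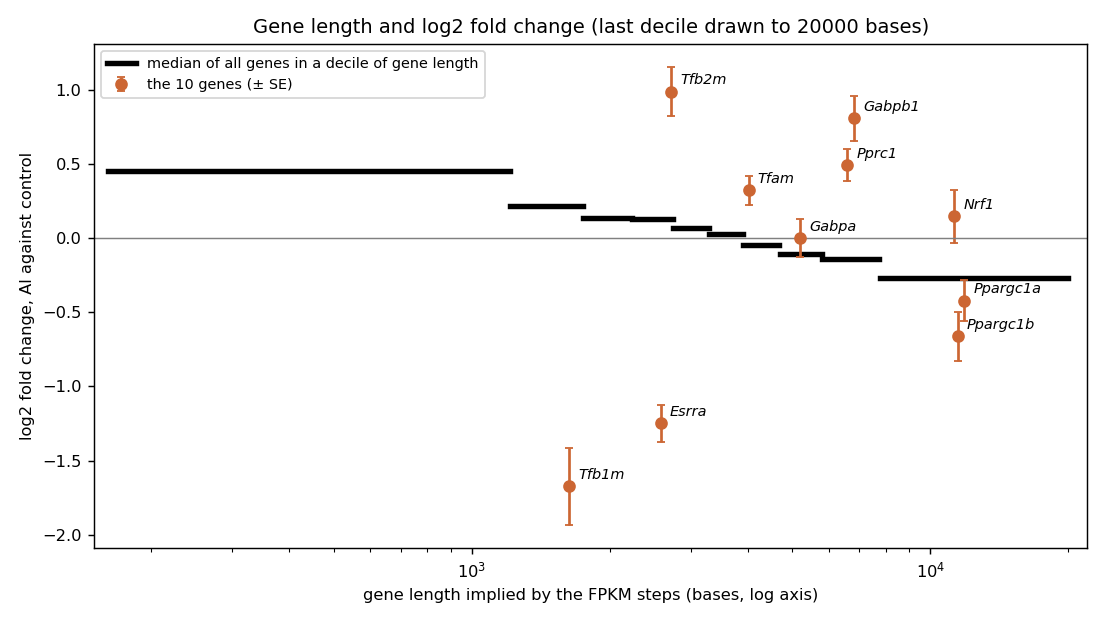
Log2 fold change (± SE, vertical axis) of the 10 genes against the gene length implied by the FPKM steps (horizontal log axis, bases), with black bars at the median of all genes in each decile of length. The bars descend from 0.45 to -0.27. Ppargc1a lies closer to the bar of its own decile than Esrra, Tfb1m and Tfb2m do to theirs.

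The 5 genes whose profile over the 6 libraries was most like that of Ppargc1a, among 10349 genes with a mean of at least 1 FPKM, were Kidins220, Brwd1, Numa1, Chd9 and 4932438A13Rik. Their centred log2 values differed from those of Ppargc1a by a root mean square of 0.0429, 0.0476, 0.0495, 0.0541 and 0.0544. Kidins220, a membrane scaffold of neurotrophin signalling, had 17.7, 16.8 and 14.8 FPKM in control and 7.96, 7.80 and 10.1 FPKM in Al libraries. None of the other 9 genes of the group was among these 5.

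Among 52 partners and modulators of PGC-1, 43 were tested, and 14 of these (32.6%) were higher and 13 (30.2%) lower, close to the 32.2% and 29.9% of all genes tested, with a median log2 fold change of -0.12. This median lay between -0.18 and -0.07 without single libraries. With FPKM as deposited 5 (11.6%) were higher and 26 (60.5%) lower (median -0.60), beside 17.9% and 47.9% of all genes, and with TPM 4 (9.30%) and 31 (72.1%), beside 11.5% and 57.6% (median -0.90). Prkab1, a regulatory subunit of the energy sensor AMPK, rose from 16.4, 15.6 and 15.2 FPKM to 40.9, 40.2 and 39.5 FPKM (1.84, adjusted P = 6.69e-06). Yy1, a DNA-binding factor that recruits PGC-1α to mitochondrial genes, rose from 21.8, 24.6 and 22.5 FPKM to 50.3, 49.7 and 43.8 FPKM (1.54). Srsf3, a splicing factor, rose by 1.21. The decreases were led by the acetyltransferase Kat2b (-1.47), the CREB coactivator Crtc3 (-1.25) and the retinoid receptor Rxrb (-1.07). Sirt1, the deacetylase that activates PGC-1α, had 3.66, 2.97 and 3.57 FPKM in control and 3.20, 3.93 and 4.24 FPKM in Al libraries (0.62, adjusted P = 0.00691). Nfe2l2, the regulator of antioxidant genes, was at 0.66 (adjusted P = 0.00146), and the repressor Nrip1 did not pass at -0.50 (adjusted P = 0.0522). For both Sirt1 and Nfe2l2 the groups overlapped as deposited and did not overlap after scaling.

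Of 37 genes of mitochondrial DNA transcription, replication and the nucleoid, all tested, 6 (16.2%) were higher and 15 (40.5%) lower, beside 32.2% and 29.9% of all genes tested, with a median of -0.34. With FPKM as deposited 3 (8.11%) were higher and 24 (64.9%) lower (median -0.82), against 17.9% and 47.9% of all genes, and with TPM 2 (5.41%) and 28 (75.7%), against 11.5% and 57.6% (median -1.11). Polrmt, the mitochondrial RNA polymerase with which TFB2M and TFAM act, had 20.1, 18.0 and 18.0 FPKM in control and 6.85, 8.49 and 13.3 FPKM in Al libraries (-0.54, adjusted P = 0.0249). Polg, the catalytic subunit of the mitochondrial DNA polymerase, was at -0.55 (adjusted P = 0.0105), whereas its accessory subunit Polg2 rose by 1.15 (adjusted P = 0.000587). Dguok and Rrm2b, which supply deoxynucleotides, were at -1.87 and -1.72, and Nme4, a mitochondrial nucleoside diphosphate kinase, was at -1.24. In the Al libraries Dguok rested on 23, 22 and 65 reads and Nme4 on 26, 9 and 31. Fen1, a flap endonuclease that also serves nuclear replication, rose from 66.8, 62.6 and 67.0 FPKM to 187.6, 192.5 and 161.1 FPKM (1.94), and Mrpl12, a mitochondrial ribosomal protein, rose by 1.23. The helicase Twnk, listed as Peo1, did not pass at 0.16 (adjusted P = 0.224), and the single-strand binding protein Ssbp1 was at -0.42 (adjusted P = 0.0463). The count of 15 lower genes became 8 (21.6%) without any single control library, below the 24.8% to 26.6% of all genes lower there. It became 9 (24.3%) without Al replicate 1, beside 27.9% of all genes, and 9 (24.3%) with no filter on low values, beside 20.7%.

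Of 43 genes of mitochondrial RNA processing and rRNA modification, 40 were tested, and 15 (37.5%) were higher and 17 (42.5%) lower, beside 32.2% and 29.9% of all genes tested, with a median of 0.10. The deposited FPKM gave 6 (15%) higher and 20 (50%) lower (median -0.37), where all genes gave 17.9% and 47.9%, and with TPM 6 (15%) and 24 (60%), where all genes gave 11.5% and 57.6% (median -0.65). The median was -0.06 with quantile normalization, and it lay between -0.01 and 0.23 without single libraries, lowest without Al replicate 2 and highest without Al replicate 3. Trmt10c, a subunit of mitochondrial RNase P, rose from 7.999, 8.02 and 8.66 FPKM to 33.7, 30.2 and 25.6 FPKM (2.32). The nuclease subunit of the same enzyme, listed as 1110008L16Rik, fell from 3.04, 2.98 and 3.25 FPKM to 0.577, 0.749 and 0.729 FPKM (-1.58, adjusted P = 0.000124). Ptcd3, a mitoribosome-associated protein, and Tbrg4, an RNA-binding protein of the FASTK family, rose by 1.91 and 1.57. Mtg1, a GTPase of mitoribosome assembly, was at -1.86, on 40, 36 and 28 reads in the Al libraries. The deadenylase relative Angel2 was at -1.56. The directions of all 6 held with FPKM as deposited, where the groups also did not overlap.

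Of 58 textbook targets of PGC-1 and ERRα, 54 were tested, and 18 (33.3%) were higher and 11 (20.4%) lower, beside 32.2% and 29.9% of all genes tested, with a median of 0.35. The FPKM as deposited gave 9 (16.7%) higher and 20 (37.0%) lower, beside 17.9% and 47.9% of all genes, and with TPM 6 (11.1%) and 31 (57.4%), beside 11.5% and 57.6%. Quantile normalization gave 12 (22.2%) higher and 17 (31.5%) lower, beside 29.7% and 30.8%. The higher genes included Gpx1, glutathione peroxidase (84.96, 86.4 and 100.3 FPKM in control, 289.8, 280.1 and 139.7 in Al libraries, 1.80), Atp5b, the catalytic β subunit of ATP synthase (1.26), and Tomm20, an import receptor (1.24). The lower genes included Pdk2, a kinase of pyruvate dehydrogenase (-2.78), Acadm, the medium-chain acyl-CoA dehydrogenase (-1.73), and Gys1, glycogen synthase (-1.12). Pdk2 rested on 40, 22 and 95 reads in the Al libraries. Acadm had 19.4, 19.3 and 17.3 FPKM in control and 3.53, 3.88 and 4.52 FPKM in Al libraries. The count of 18 higher genes became 31 (57.4%) without Al replicate 3, beside 34.7% of all genes. The median of the list turned to -0.07 with quantile normalization, -0.14 with FPKM as deposited and -0.44 with TPM, while the medians of all genes under these were -0.03, -0.43 and -0.72.

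**Figure D5:**
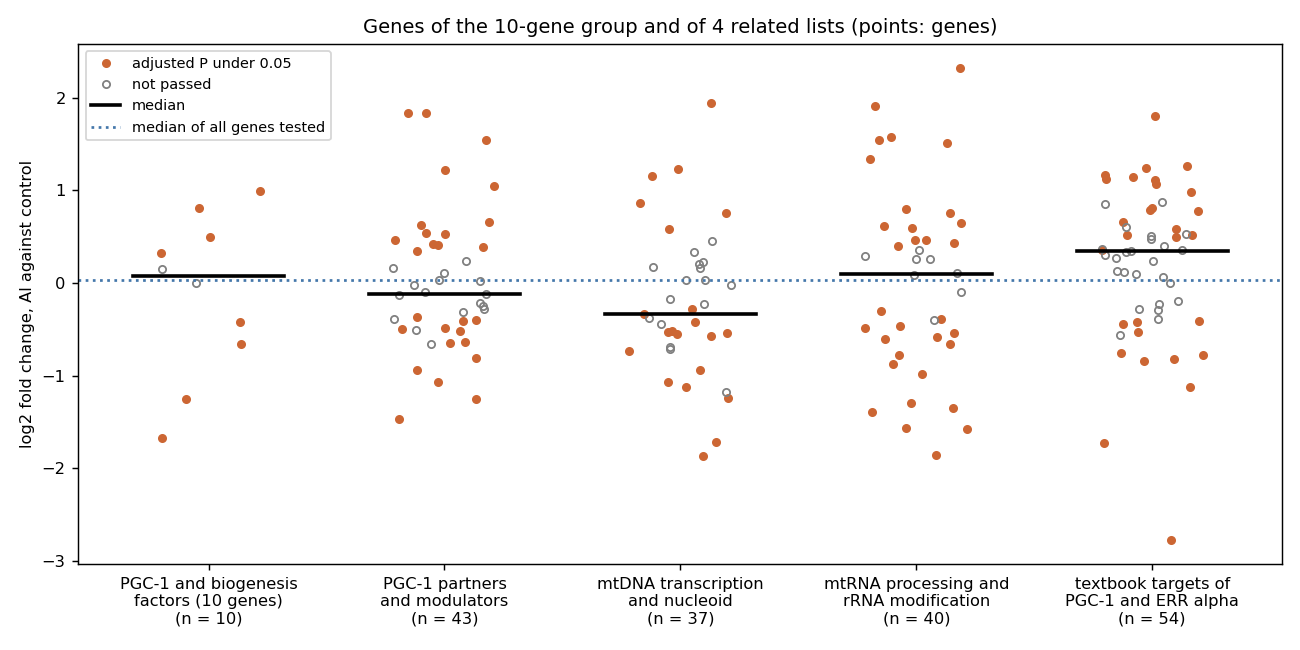
Log2 fold change (vertical axis) of single genes in the 10-gene group and in 4 related lists, filled where the adjusted P was under 0.05, with black bars at the medians and a dotted line at the median of all genes tested (0.03). The list medians are -0.12, -0.34, 0.10 and 0.35 from left to right after the 10 genes, and the last turned to -0.07 with quantile normalization.

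Genes were also grouped by the motifs shown above. Of 1455 genes tested with an NRF1 motif in a promoter window, 34.8% were higher and 31.8% lower, and their median log2 fold change was 0.03. Of 878 genes with a GABP motif, 39.0% were higher and 26.5% lower, with a median of 0.13. Of 35 genes with an ERR motif, 11 were higher and 8 lower, with a median of 0.08. When the motif had to lie in the 150 bases before the start, the medians were 0.02 for NRF1 (1079 genes), 0.17 for GABP (617 genes) and -0.15 for ERR (16 genes, 4 higher and 4 lower). Among all 9785 genes tested that had a window, 32.3% were higher and 30.4% lower, with a median of 0.03.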

How the data were processed

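RNA-seq input libraries of 3 control and 3 Al-treated HT22 samples were analysed; the samples were grouped by the letters of their labels. The authors deposited FPKM, 1 value per gene symbol and library. The paper's methods name Trimmomatic, SortMeRNA and HISAT2 on GRCm38/mm10, the submitters' processing notes name fastp, HISAT2, HTSeq and GRCm39, and the design text names a genome of another species; the build behind the values is therefore uncertain, and positions come from GENCODE M21 (GRCm38). Whole reads were recovered from the FPKM steps for 17688 of 17688 genes above 0 (tolerance 0.001 reads).

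FPKM were divided by median-of-ratios size factors (0.799 to 1.20) and tested as log2(FPKM + 0.1) with limma 3.58.1 (R 4.3.3; eBayes with trend) over genes with a mean of at least 0.1 FPKM. On simulated data over 12906 genes, 83.5% of those changed by 1 on the log2 scale were called. Of those changed by 2, 97.9% were called, and of unchanged genes 0.094%. Only a small set of genes was changed there, equally up and down, with a fixed spread and no trend with length. These rates need not hold for the libraries compared here, where 32.2% of genes were higher and 29.9% lower. Replicates are labelled biological, and no library was duplicated. Alternatives covered scaling, pseudocount, filter, trend, a replicate block, limma voom on recovered reads (4238 genes higher and 3848 lower), thinned reads and each library left out. Genes named were the 10 members, in each list the 3 largest increases and decreases past the threshold with a mean of at least 1 FPKM, and Polrmt, Twnk, Polg, Ssbp1, Nfe2l2, Gabpb2, Sirt1, Yy1 and Nrip1; marker and overlapping genes were added. Members and lists were chosen with earlier results of these data known. Copies were found with minimap2 2.31-r1302 (at least 200 bases and 85% identity). The immunoprecipitated libraries were not analysed here.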

Additional observations from a re-analysis of the deposited data

How the results depend on the processing

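Of 190 values of the 10 genes under 19 alternatives, 159 kept their direction and side of the threshold, and 59 of 63 values of the 7 ratios stayed within the spread between replicates. Quantile normalization was planned for the fold changes, while for the ratios it was added, with the centring, after seeing the data. With quantile normalization the log2 ratio to Ppargc1a was 0.47 for Pprc1. Centred by gene length it was 0.75 for Pprc1, -1.21 for Esrra and 0.50 for Tfam. The count of 4 genes higher at the adjusted P became 1 with FPKM as deposited (17.9% of all genes higher) and 0 with TPM (11.5%), and the count of 4 lower became 2 with quantile normalization (30.8% of all genes lower). At the study thresholds, 2 higher became 0 with FPKM as deposited (14.004% of all genes) and 0 with TPM (9.30%), and 3 lower became 6 with TPM (53.1%). With FPKM as deposited the log2 fold changes were 0.0077 for Pprc1, 0.33 for Gabpb1, -0.48 for Gabpa, -0.33 for Nrf1 and -0.16 for Tfam. With TPM they were -0.29 for Pprc1, 0.043 for Gabpb1, 0.22 for Tfb2m, -0.78 for Gabpa, -0.62 for Nrf1 and -0.46 for Tfam. With quantile normalization they were -0.16 for Ppargc1a, -0.36 for Ppargc1b, 0.31 for Pprc1, 0.46 for Nrf1 and 0.16 for Gabpa. Centred within deciles of gene length, they were -0.15 for Ppargc1a, 0.41 for Nrf1 and 0.10 for Gabpa. The scalings differ by construction in the median of all genes, and the cause of that shift was not tested.

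Without single libraries Ppargc1a lay between -0.50 and -0.35, Tfam between 0.30 and 0.34, Nrf1 between -0.028 and 0.29 and Gabpa between -0.11 and 0.060. Same-numbered control and Al libraries did not deviate together (r = -0.08, -0.06 and -0.11 across genes for numbers 1, 2 and 3), so the numbers were not read as a pairing. With the replicate block, Ppargc1a stayed at -0.42 (limma adjusted P = 0.0526) and Tfam at 0.32 (adjusted P = 0.0572), both past the threshold without the block. The block took the genes called in the whole table from 4154 to 3994 higher and from 3855 to 3684 lower.

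In 9 of the 10 genes Al replicate 3 had the highest deposited value of the Al group, and in 6 of 10 after scaling. Its size factor over the whole table was 0.929, against 0.799 and 0.811 for Al replicates 1 and 2. The same count over all genes was not made. Al libraries held fewer reads than control libraries, and Tfb1m rested on 23 to 55 reads in them. The genome build, the strand setting of the counting and the kind of control are unsure.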
